A study of Mus musculus with 70 samples.

Results

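Glutathione and thioredoxin are the main carriers of reducing power against peroxides in animal cells. In blood leukocytes, 10 genes of these systems were followed: Gsr, Gclm, Gclc, Gpx1, Txn1, Txnrd1, Prdx1, Prdx5, Nqo1 and Hmox1, out of the 52636 genes counted. Glutamate-cysteine ligase (Gclc and its modifier Gclm) makes the first bond of glutathione, Gpx1 spends glutathione to remove peroxides, and Gsr returns the oxidized form to the reduced one with NADPH. Thioredoxin (Txn1), its reductase (Txnrd1) and the peroxiredoxins (Prdx1, Prdx5) form a parallel route. The transcription factor NRF2 (Nfe2l2), held back by KEAP1, drives many of these genes, while BACH1 represses several of them. In blood monocytes the same systems meet the superoxide that the phagocyte NADPH oxidase makes. The genes were chosen by function and on measured values, since higher levels of Gsr in Ly6C-high monocytes of stressed mice were already known from these libraries. Differences between the conditions in Ly6C-high monocytes are therefore a description, and their p-values are not printed. Counts of genes past the thresholds are given for these cells, but nothing is read from them. The other cell types, and the cell types of unstressed mice, were tested. Earlier results of these data were known when the members and tests were chosen.

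Male C57BL/6J mice aged 7 to 8 weeks met an aggressive CD-1 mouse each day for 10 days (chronic social defeat stress) and were split by a social interaction test into susceptible (SUS) and resilient (RES) animals. Unstressed controls (CON) were housed in pairs. Monocytes with high and with low Ly6C, T lymphocytes and B lymphocytes were obtained by flow cytometry from trunk blood after red cell lysis, although the labels name brain as the source, a conflict that was not resolved. Each of the 12 groups had 6 libraries, except 4 for Ly6C-low CON, giving 70 libraries with 19769835 to 67038231 counts. The condition rests on behaviour after defeat, so SUS and RES mice shared the stress itself, and no allele or drug distinguished the groups. Since the labels name no animal, libraries were treated as independent, and p-values measure the spread between libraries only.

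Marker genes matched the labelled cell types in 68 libraries. The summed level of 4 B cell markers was 2936 to 4241 CPM (counts scaled to library size after TMM normalization, which allows for library composition) in the B cell libraries used and at most 34.4 CPM in any other cell type, and 4 T cell markers gave 1136 to 1654 CPM in T cells and at most 7.2 CPM elsewhere. The sum of 4 Ly6C-high monocyte markers was 2308 to 5568 CPM in Ly6C-high monocytes and at most 1003 CPM elsewhere, in T cells. That of 4 Ly6C-low monocyte markers was 5650 to 8259 CPM in Ly6C-low monocytes and at most 1282 CPM elsewhere, in Ly6C-high monocytes. Library 52, labelled RES B cells, held 1154 CPM of T cell markers and 8.32 CPM of B cell markers. Library 70, labelled RES T cells, held 3919 CPM of B cell markers and 3.73 CPM of T cell markers. Both were left out, which leaves 5 libraries in each of these groups. Of 5 brain markers, Mbp, which leukocytes also express, reached a median of 341 CPM in Ly6C-high monocytes, and the medians of Snap25 and Gfap were 0 CPM. Red cell markers, in contrast, differed between conditions. Their sum (7 genes) was 332 to 1142 CPM in CON, 1050 to 8784 CPM in SUS and 1044 to 4132 CPM in RES Ly6C-high libraries, and all 7 were above 0 in every group.

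Promoters are shown because many genes of these routes are known to carry the antioxidant response element bound by NRF2. A link to the differences between conditions was not tested. The core TGACNNNGC was searched on both strands from 250 bases before to 50 after each start in RefSeq's promoters (GRCm38.p6). It was present in 12.4% of the 32851 windows and in 3 of the 9 windows that belong to 7 of the members (Gclm, Prdx1 and Txnrd1). The windows of Txn1, Nqo1, Gpx1 and Prdx5 held no match, and Gsr, Gclc and Hmox1 were not searched. Capitals mark the match, which lies on the strand opposite to the gene and is a description of letters only. Each window is on the plus strand and ends before the start site. The windows lie at chr3:122245387-122245467, chr4:116685430-116685510 and chr10:82859078-82859158, in this order.
Gclm: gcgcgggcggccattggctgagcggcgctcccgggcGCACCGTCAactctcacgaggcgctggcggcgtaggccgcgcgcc
Prdx1: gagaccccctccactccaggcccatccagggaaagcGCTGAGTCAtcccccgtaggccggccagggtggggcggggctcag
Txnrd1: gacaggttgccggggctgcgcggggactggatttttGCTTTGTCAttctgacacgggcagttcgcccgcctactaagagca
The first base of the match was 134 bases before the start in Gclm, 133 in Prdx1 and 92 in Txnrd1. The Txnrd1 window belongs to the second of its starts and lies inside the gene, in an intron of its longest transcript.

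In unstressed mice, the members fell into distinct patterns across the cell types. Gsr, Hmox1 and Gpx1 were highest in both monocyte populations, and Prdx5 stood out in Ly6C-high monocytes. The medians of Gclc, Gclm and Txnrd1 spanned narrower ranges, from 5.81 to 8.36, 0.805 to 1.82 and 5.89 to 10.2 CPM per kb of exon. To compare genes, levels in this paragraph and the next 2 are CPM per kb of exon, scaled over all 68 libraries used, while differences are log2 fold changes ± SE from a fit of the 22 CON libraries with Benjamini-Hochberg adjusted p-values of edgeR's quasi-likelihood test over 21032 genes. The labels do not say whether libraries of different cell types came from the same mice, and the fit treated them as independent.

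Gsr (chr8:33652523-33698163, GRCm38) was at 126 to 210 CPM per kb (median 172) in Ly6C-high monocytes. The 4 Ly6C-low libraries lay between 126 and 137 CPM per kb (median 132), T cells between 5.96 and 11.4 (median 9.84) and B cells between 0.169 and 1.36 (median 0.953). The 2 monocyte populations overlapped and did not differ beyond their spread (log2 difference 0.36 ± 0.30, adjusted p = 0.48), whereas T cells were below Ly6C-low monocytes by 3.86 ± 0.31 on the log2 scale (adjusted p = 2.05e-09) and B cells below T cells by 3.45 ± 0.30 (adjusted p = 1.26e-08). Gpx1 (chr9:108338903-108340343), the most abundant member per kb, had medians of 611 CPM per kb in Ly6C-high and 508 in Ly6C-low monocytes, against 53.2 in T cells and 197 in B cells. Its monocyte levels overlapped (0.29 ± 0.15, adjusted p = 0.195), and here B cells exceeded T cells by 1.78 ± 0.14 (adjusted p = 4.64e-11), the reverse of the order of Gsr. Hmox1 (chr8:75093621-75100589), the inducible heme oxygenase that releases iron and biliverdin from heme, had medians of 33.1 and 40.1 CPM per kb in Ly6C-high and Ly6C-low monocytes, 0.599 in T cells and 0.11 in B cells. The monocytes did not differ in Hmox1 beyond their spread (-0.12 ± 0.55, adjusted p = 0.94).

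Prdx5 (chr19:6906697-6910106), a peroxiredoxin of mitochondria, peroxisomes and cytosol, separated the monocytes: its median was 138 CPM per kb in Ly6C-high and 30.1 in Ly6C-low monocytes, with 18.7 in B cells and 11.8 in T cells. The ranges of the 2 monocyte populations did not overlap, and the log2 difference was 2.17 ± 0.18 (adjusted p = 8.95e-10). Reads of Trmt112, which overlaps Prdx5 on the opposite strand, may not be told apart from those of Prdx5. Txn1 (chr4:57943373-57956411) was also higher in Ly6C-high than in Ly6C-low monocytes (medians 24.6 and 13.0 CPM per kb, log2 difference 0.89 ± 0.21, adjusted p = 0.0024), as was Prdx1 (chr4:116685544-116700822; medians 34.9 and 22.2 CPM per kb, 0.56 ± 0.19, adjusted p = 0.042). Txnrd1 (chr10:82833951-82897712) went the other way (medians 5.89 and 10.2 CPM per kb, -0.69 ± 0.14, adjusted p = 0.00069). Gclc (chr9:77754535-77794485) had its highest median in T cells, at 8.36 CPM per kb against 5.81 in Ly6C-high monocytes (Ly6C-high against T cells -0.69 ± 0.16, adjusted p = 0.00083). B cells were also below T cells (-0.42 ± 0.16, adjusted p = 0.046), but Gclc did not pass between Ly6C-low monocytes and T cells (-0.40 ± 0.18, adjusted p = 0.079). Its modifier Gclm (chr3:122245557-122270732) had medians of 0.805 to 1.82 CPM per kb. Nqo1 (chr8:107388225-107403206), a quinone reductase often read as a sign of NRF2 activity, was near the detection limit: in CON libraries its highest level was 0.766 CPM per kb, in Ly6C-low monocytes, and 4 of 6 Ly6C-high CON libraries held at most 3 counts.

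**Figure D1:**
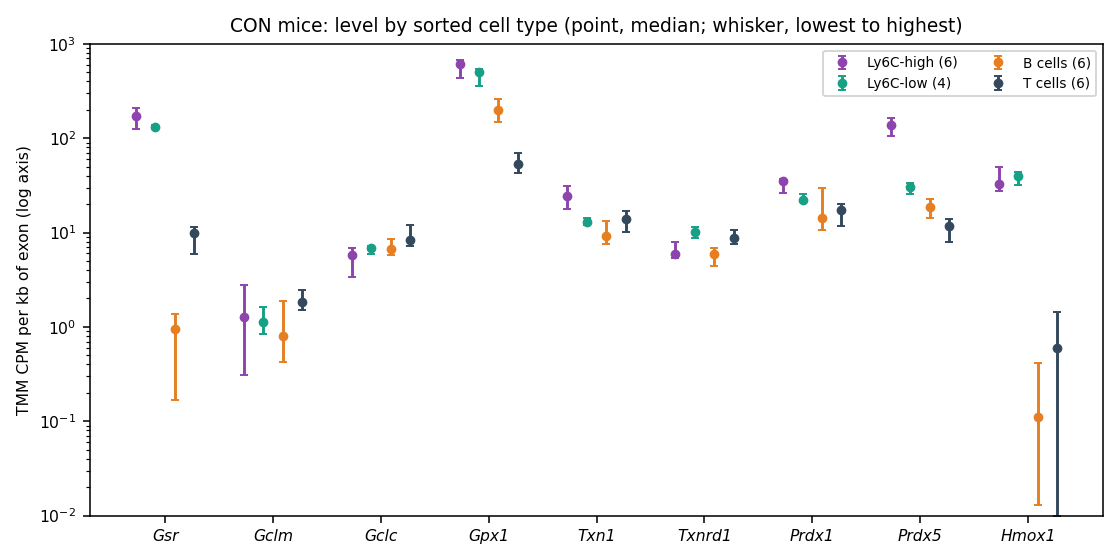
Level of 9 members in CON libraries (TMM CPM per kb of exon, log axis) by sorted cell type; points are medians, whiskers run from the lowest to the highest library, and the Hmox1 whisker of T cells that reaches the bottom of the axis ends at 0. Gsr and Hmox1 were high in monocytes and low in lymphocytes, whereas the medians of Gclc (5.81 to 8.36) and Txnrd1 (5.89 to 10.2) spanned narrower ranges.

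Of the 10 members, 4 passed an adjusted p under 0.05 between Ly6C-high and Ly6C-low monocytes, where 19.3% of all genes tested did. Between Ly6C-high monocytes and B cells 6 passed (47% of all genes), between Ly6C-high monocytes and T cells 8 (45.7%), between Ly6C-low monocytes and B cells 6 (42.5%), between Ly6C-low monocytes and T cells 4 (39.4%), and between B and T cells 8 (31.4%). The last count fell to 5 without the low-count filter. Gsr, Gpx1, Gclc, Gclm, Nqo1 and Hmox1 did not pass between the monocyte populations, which does not show that their levels were equal. Of the 59 other genes of these pathways, 55 were tested, and 22 were higher and 2 lower in Ly6C-high than in Ly6C-low monocytes at an adjusted p under 0.05. Of all genes past that threshold, 47.1% were higher in Ly6C-high monocytes. This list was drawn up with earlier results of these libraries known.

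In Ly6C-high monocytes, the recycling and peroxide-removing members were higher on average in SUS than in CON mice, but only for Gsr did the libraries not overlap. For Gpx1, Txn1, Txnrd1, Prdx1 and Prdx5, 5 of 6 SUS libraries lay above every CON library. Of the subunits of the glutathione synthesis enzyme, 2 of 6 SUS libraries did so for Gclm and 0 of 6 for Gclc. The fold changes of both subunits had wide intervals. Gsr stood at a lowest, median and highest level of 336, 445 and 572 CPM in CON, 768, 1002 and 1172 CPM in SUS, and 593, 896 and 1135 CPM in RES libraries. Every SUS and every RES library lay above every CON library. The log2 fold change of Gsr was 1.15 ± 0.17 (SE) for SUS and 0.98 ± 0.17 for RES against CON, and 0.17 ± 0.17 for SUS against RES. Levels in this and the following paragraphs are CPM scaled within the cell type.

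Gpx1, which consumes the glutathione that Gsr restores, ran from 590 to 924 CPM (median 827) in CON, from 747 to 3176 CPM (median 1496) in SUS and from 1044 to 1657 CPM (median 1263) in RES libraries. The RES libraries did not overlap with CON, whereas SUS library 17 (747 CPM) lay inside the CON range and SUS library 14 (3176 CPM) far above all others. The log2 fold change was 1.03 ± 0.22 for SUS and 0.69 ± 0.22 for RES against CON, and 0.72 for SUS without library 14. Library 14 also held the highest red cell marker sum (8784 CPM), while its Gsr level (906 CPM) was below the SUS median. Gclc, the catalytic subunit of glutathione synthesis, had medians of 21.0, 17.3 and 16.1 CPM in CON, SUS and RES libraries, with a log2 fold change of -0.27 ± 0.27 for SUS and -0.42 ± 0.27 for RES. Gclm varied widely within each group, from 1.9 to 16.4 CPM in CON and from 1.65 to 13.4 CPM in RES libraries, and its SUS fold change was 0.54 ± 0.45 on the log2 scale, with a 95% interval from -0.34 to 1.41 that includes the fold changes of the other members. The groups overlapped for both subunits.

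Among the thioredoxin genes, Txn1 had medians of 24.2 CPM in CON, 50.0 in SUS and 37.1 in RES libraries. Of 6 SUS libraries, 5 lay above the highest CON library (31.8 CPM), and the log2 fold change was 0.93 ± 0.19 for SUS and 0.59 ± 0.19 for RES. Txnrd1, which reduces thioredoxin, had medians of 40.0, 70.3 and 55.6 CPM and log2 fold changes of 0.70 ± 0.17 and 0.37 ± 0.17. Prdx1, a cytosolic peroxiredoxin, had medians of 99.9, 178 and 149 CPM and log2 fold changes of 0.81 ± 0.17 and 0.53 ± 0.17. Prdx5 had medians of 277, 490 and 427 CPM, and its RES libraries did not overlap with CON. The log2 fold changes of Prdx5 were 0.89 ± 0.18 for SUS and 0.64 ± 0.17 for RES. On the opposite strand, Trmt112 shares 19.1% of the exon bases of Prdx5, and the strand setting of the counting is not given in the sources used here, so reads of the 2 genes may not be told apart. Over all libraries, Trmt112 held 11.6% as many counts as Prdx5. Pseudogenes with a stretch of at least 200 bases at 95% identity or more held 3.45% as many counts as Prdx1 and 1.16% as many as Txn1.

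Hmox1 had medians of 54.4 CPM in CON, 112 in SUS and 104 in RES libraries. Of 6 SUS libraries, 4 were above all CON libraries, as were 4 of 6 RES libraries, and the log2 fold change was 0.85 ± 0.21 for SUS and 0.75 ± 0.21 for RES. Nqo1 did not pass the filter on low counts and was not tested, with at most 3 counts in all 6 SUS and all 6 RES libraries. In CON, 4 of 6 libraries held at most 3 counts of Nqo1 too, so no change of Nqo1 can be read in either direction.

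**Figure D2:**
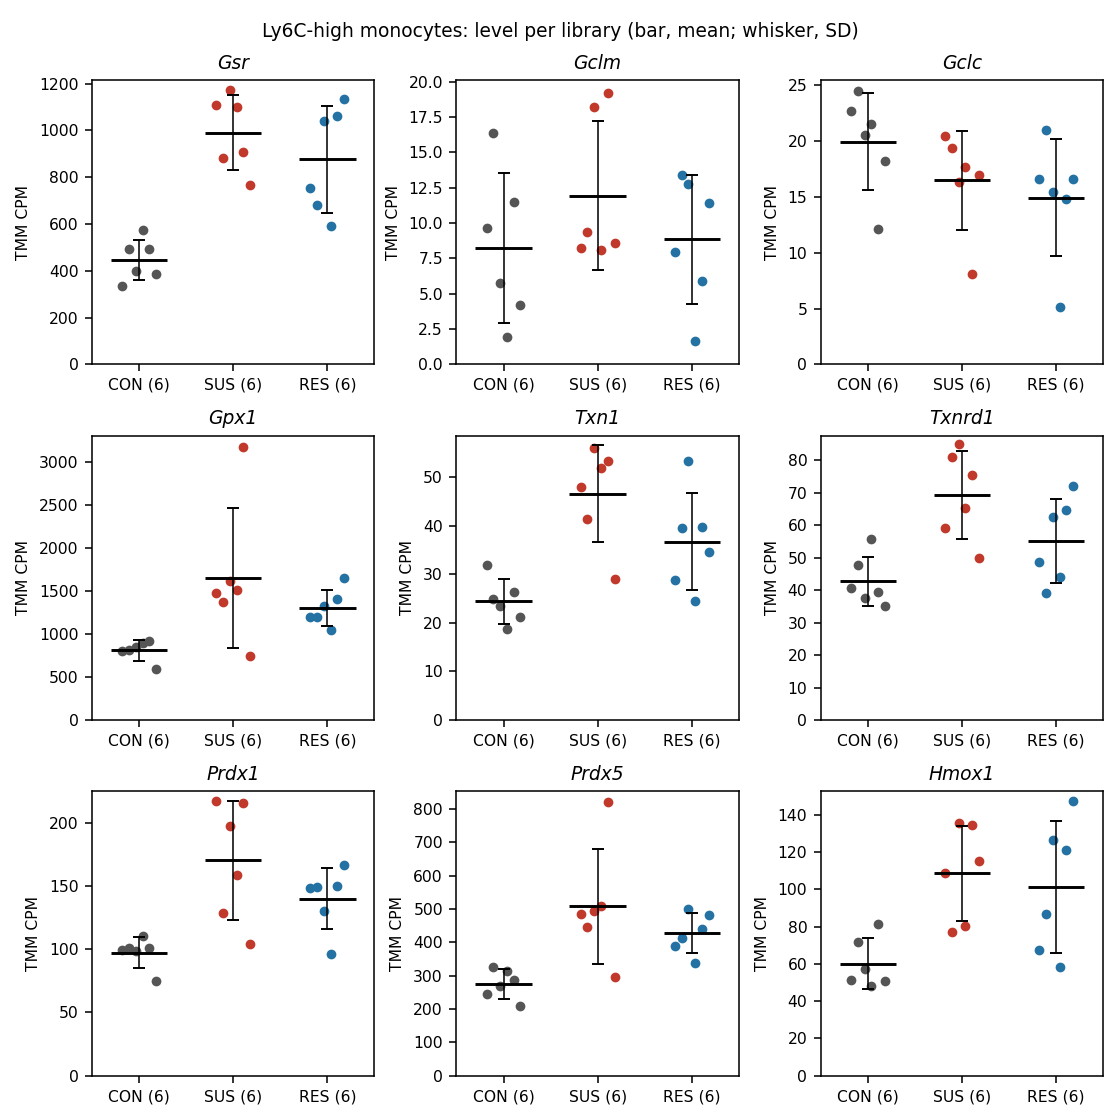
Level of 9 members in Ly6C-high monocytes (TMM CPM, axes from 0), 1 point per library, with 6 CON, 6 SUS and 6 RES libraries; bars are means and whiskers SD. Gsr libraries of SUS (768 to 1172 CPM) and RES mice (593 to 1135 CPM) lay above all CON libraries (336 to 572 CPM), and 1 SUS library of Gpx1 reached 3176 CPM.

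Counted over the members, 7 of the 9 tested passed an adjusted p under 0.05 for SUS against CON (12.6% of all 16955 genes tested did) and 2, Gsr and Gpx1, also passed an absolute log2 fold change of 1 (3.45% of all genes). For RES against CON, 3 passed the adjusted p (4.97% of all genes) and 0 both thresholds (0.997%). The count of 3 was 1 without CON library 1, 7, 10 or 16 or RES library 9, 15 or 18, 5 without SUS library 17, and 6 without RES library 12 or SUS library 14, and the count of 7 held without any single library. For SUS against RES 0 passed (0.0059%), with 0 at an unadjusted p under 0.05 and 0 by DESeq2. In 1 of 9 members SUS libraries did not overlap with CON (4.3% of all genes, SUS higher), and in 3 of 9 RES libraries did not (2.86%). Nothing is read from these counts, since the members were chosen on this contrast. Their median log2 fold change was 0.85 for SUS and 0.59 for RES, against -0.05 and -0.03 over all genes tested, and nothing is read from this gap either.

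Red cell markers moved with these members in Ly6C-high monocytes: 7 of 7 were higher in SUS than in CON mice and 2 of 7 in RES mice at an adjusted p under 0.05. With their mean log2 level as a covariate, the SUS log2 fold change was 1.02 for Gsr, 0.39 for Gpx1, 0.38 for Prdx5, 0.42 for Hmox1, 0.58 for Txn1, 0.53 for Prdx1, 0.59 for Txnrd1 and -0.39 for Gclm, and 0 members passed the adjusted p. In that fit 4 of 16955 genes passed the adjusted p, against 2139 without the covariate, which itself differed between the conditions. Among CON libraries the red cell sum reached 1142 CPM, so SUS library 5 (1050 CPM) and RES library 3 (1044 CPM) lay within the CON range. Their Gsr levels were 883 and 753 CPM, above all CON libraries. This covers Gsr only, in a single SUS and a single RES library, and was not tested. Every SUS and RES library lay above all CON libraries in Gsr, so any choice of libraries would give this. Nothing is read from it. Genes of the monocyte list (3 of 4), of the Ly6C-high monocyte list (3 of 4), of platelets (1 of 6) and of granule progenitors (1 of 4) were also higher in SUS mice. Of the neutrophil list, 0 of 5 tested genes passed for SUS, with log2 fold changes from -2.37 to 2.72 (median 1.21). The summed neutrophil markers varied widely, from 9.0 to 354 CPM in CON, 17.5 to 1054 CPM in SUS and 5.71 to 596 CPM in RES libraries. In bulk libraries, more cells of a type and more RNA per cell cannot be told apart, and the part of other cells in the differences was not tested beyond these values.

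**Figure D3:**
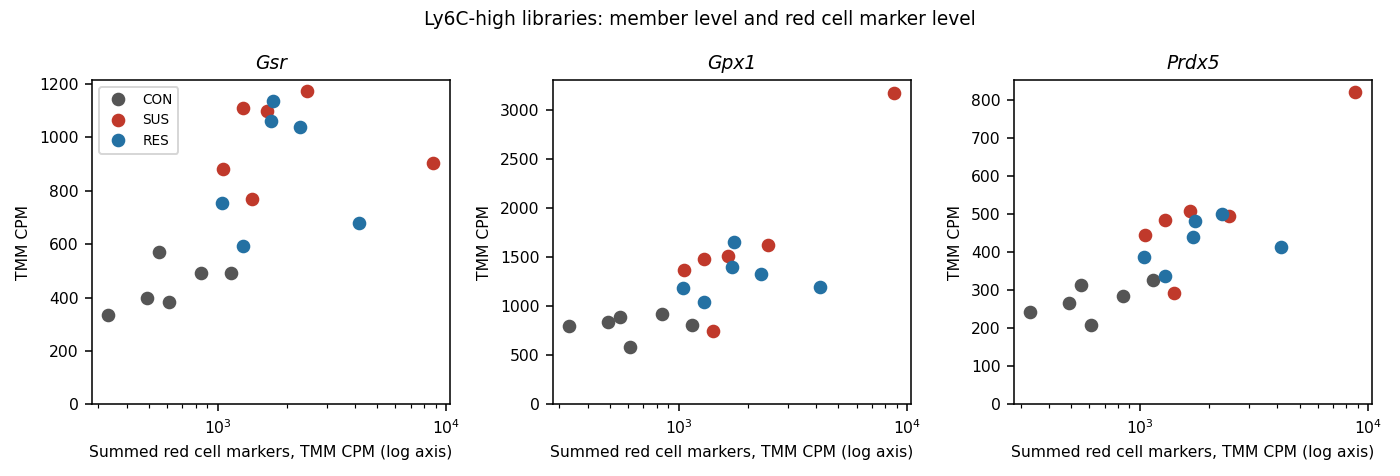
Level of Gsr, Gpx1 and Prdx5 (TMM CPM) against the summed level of 7 red cell markers (TMM CPM, log axis) in the 18 Ly6C-high libraries. The library with the highest red cell sum (8784 CPM) had the highest Gpx1 and Prdx5 but a Gsr level of 906 CPM, inside the SUS range.

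Of the 59 other pathway genes, 55 were tested in Ly6C-high monocytes. For SUS against CON, 22 were higher and 0 lower at an adjusted p under 0.05, with a median log2 fold change of 0.64. Over all genes tested, 12.6% passed, of which 69.6% were higher. The list was drawn up with earlier results of these libraries known and shares them with the members, so its values are a description too. Of these, 5 also passed the fold threshold: Gpx3, a secreted glutathione peroxidase (14.8 CPM in CON and 45.2 in SUS on average, log2 fold change 1.61 ± 0.26), Prdx2, a peroxiredoxin abundant in red cells (46.2 and 111 CPM, 1.26 ± 0.22), Cyba, a membrane subunit of the phagocyte NADPH oxidase (251 and 525 CPM, 1.07 ± 0.20), Gpx4, which reduces lipid peroxides (88.6 and 183 CPM, 1.04 ± 0.20), and Sod1, the cytosolic superoxide dismutase (113 and 229 CPM, 1.02 ± 0.17). By group, 4 of 5 tested enzymes of NADPH supply passed (G6pdx, Pgd, Tkt and Taldo1 of the pentose phosphate route, with log2 fold changes of 0.61 to 0.92), as did 4 of 6 oxidase subunits, 4 of 12 genes of glutathione synthesis and recycling, 4 of 10 thioredoxin and peroxiredoxin genes, 3 of 9 glutathione transferases, 2 of 3 dismutase and catalase genes, and 1 of 4 quinone and heme genes. Of NRF2 and its partners, 0 of 6 passed. Nfe2l2 averaged 118 CPM in CON and 145 CPM in SUS libraries (0.30 ± 0.13), Keap1 25.7 and 43.5 CPM (0.76 ± 0.26), and Bach1 476 and 368 CPM (-0.37 ± 0.13). For RES against CON, 11 were higher and 0 lower (4.97% of all genes passed), and Prdx2 alone passed both thresholds (1.08 ± 0.22).

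Over the 18 Ly6C-high libraries and 12735 genes with a mean of at least 50 counts, the genes with log2 CPM most like that of Gsr were Chil3 (Pearson r = 0.95), Gcnt2 (0.94), Socs3 (0.94), Ptpn1 (0.93) and Chp1 (0.93). The libraries share the conditions, so these values describe the pattern and were not tested. Chil3, a chitinase-like protein of myeloid cells, averaged 1540 ± 499 CPM (SD, n = 6) in CON, 3810 ± 637 in SUS and 2931 ± 738 in RES libraries. Among the members, r with Gsr was 0.84 for Txnrd1, 0.84 for Prdx5, 0.83 for Prdx1, 0.82 for Hmox1, 0.77 for Txn1, 0.76 for Gpx1, 0.32 for Gclm and -0.15 for Gclc.

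In Ly6C-low monocytes, the SUS fold changes were nearer to 0 than in Ly6C-high monocytes for all 9 members fitted in both, and the difference was not tested. The members were chosen on values of Ly6C-high monocytes, which favours larger changes there, so nothing is read from this. Over all genes tested, too, 12.6% passed an adjusted p under 0.05 for SUS in Ly6C-high and 0.241% in Ly6C-low monocytes. Earlier results of these cells, too, were known when the members were chosen. Prdx5 alone passed an adjusted p under 0.05 for SUS against CON (1 of 10 members, against 0.241% of the 19521 genes tested), and 0 members also passed the fold threshold (0.0871% of all genes). The 4 CON libraries of Prdx5 were at 84.5, 67.7, 65.2 and 84.4 CPM. SUS libraries ran from 88.7 to 127 CPM (median 119) and RES libraries from 97.6 to 130 CPM (median 104), so neither overlapped with CON. The log2 fold change was 0.59 ± 0.12 for SUS (edgeR adjusted p = 0.027) and 0.55 ± 0.12 for RES (adjusted p = 0.082). Leaving out 1 library at a time, the adjusted p for SUS ran from 0.0081 to 0.13, and it was above 0.05 without CON library 21, 24, 29 or 32 or without SUS library 19, 25 or 30. It was 0.079 with only CON and SUS libraries in the fit, 0.066 with added offsets for GC content and length, and 0.38 with the red cell covariate. The overlap with Trmt112 on the opposite strand applies to Prdx5 here too.

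Gsr in Ly6C-low monocytes was at 420, 449, 438 and 409 CPM in the CON libraries, from 471 to 718 CPM (median 559) in SUS and from 450 to 697 CPM (median 546) in RES libraries. Again neither stressed group overlapped with CON, but the log2 fold changes of 0.46 ± 0.12 (adjusted p = 0.10) and 0.38 ± 0.12 (adjusted p = 0.24) did not pass, and DESeq2 gave an adjusted p of 0.040 for SUS. Txn1 was at 17.5, 17.0, 15.1 and 15.3 CPM in CON and from 20.1 to 34.0 CPM (median 25.9) in SUS libraries, without overlap, at 0.68 ± 0.20 (adjusted p = 0.18). RES libraries of Txn1 ran from 14.4 to 33.5 CPM and overlapped with CON (0.63 ± 0.20, adjusted p = 0.25). Gpx1 was at 853, 611, 932 and 871 CPM in CON, and 5 of 6 SUS libraries lay above all of them, at 0.40 ± 0.15 (adjusted p = 0.37). Groups without overlap, with the stressed group higher, were thus found in 3 of 10 members for SUS (1.07% of all genes) and in 2 of 10 for RES (1.36%).

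Txnrd1, Prdx1, Hmox1, Gclc and Gclm had SUS log2 fold changes between -0.11 and 0.16 in Ly6C-low monocytes, with 95% intervals such as -0.07 to 0.34 for Txnrd1 and -0.71 to 0.52 for Gclm. For RES against CON, 0 members passed an adjusted p under 0.05 (0.0256% of all genes) or both thresholds (0.0154%), while 5 of 10 had an unadjusted p under 0.05 (9.67% of all genes did) and DESeq2 passed 1, Prdx5 (adjusted p = 0.00869). For SUS against RES, 0 of 10 passed (0% of all genes), with 0 at an unadjusted p under 0.05 and 0 by DESeq2. Of the other pathway genes, 0 of 55 passed for SUS or RES against CON, with 10 and 11 at an unadjusted p under 0.05 (9.51% and 9.67% of all genes). Among those with the largest changes, Prdx2 averaged 28.4 CPM in CON and 45.4 in SUS libraries (0.67 ± 0.16, adjusted p = 0.058), Mgst1, a membrane-bound transferase, 17.3 and 28.4 CPM (0.72 ± 0.23, adjusted p = 0.23), and Slc7a11, the cystine importer, 2.48 and 4.46 CPM (0.84 ± 0.50, adjusted p = 0.66). Gpx4 averaged 34.1 CPM in CON and 54.5 in RES libraries (0.67 ± 0.15, adjusted p = 0.098). Nfe2l2, Keap1 and Bach1 had SUS log2 fold changes of 0.07, 0.31 and 0.05. The red cell marker sum was 351 to 1485 CPM in CON, 1004 to 3198 in SUS and 1033 to 4515 in RES Ly6C-low libraries, with 0 of 7 markers past the threshold in SUS mice. Its part in the values of Prdx5 and Gsr was not tested beyond the covariate fit.

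**Figure D4:**
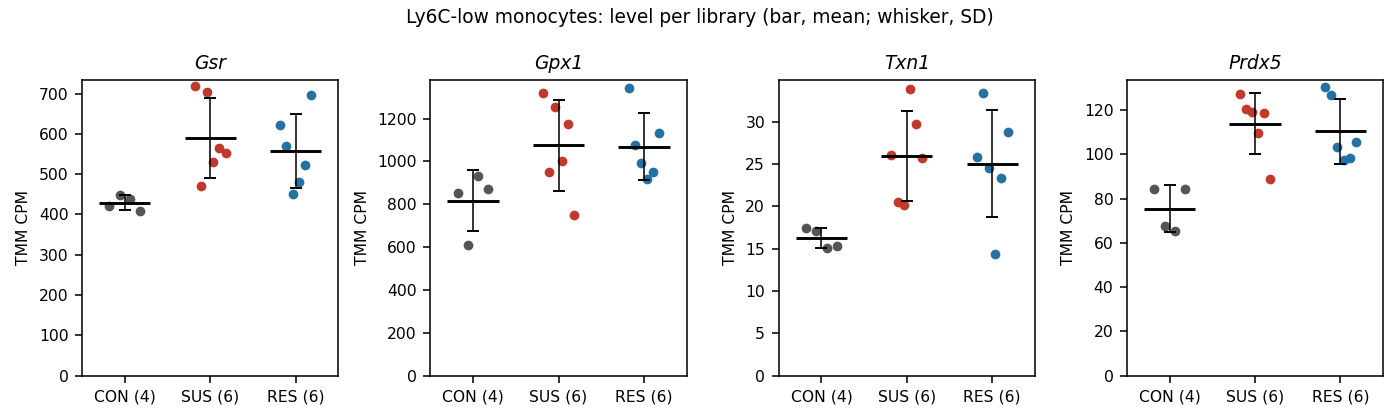
Level of Gsr, Gpx1, Txn1 and Prdx5 in Ly6C-low monocytes (TMM CPM, axes from 0), 1 point per library, with 4 CON, 6 SUS and 6 RES libraries; bars are means and whiskers SD. Prdx5 in CON (65.2 to 84.5 CPM) lay below all SUS (88.7 to 127 CPM) and RES libraries.

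In T cells, 0 of 10 members passed for SUS against CON (0.0424% of all genes), with 2 at an unadjusted p under 0.05 (Gsr and Gpx1, against 4.80% of all genes) and 0 by DESeq2. Gsr ran from 17.2 to 32.5 CPM (median 28.1) in CON and from 26.6 to 55.5 CPM (median 36.6) in SUS libraries, which overlapped, and was at 34.4, 26.9, 38.9, 25.1 and 24.0 CPM in the 5 RES libraries. Its SUS log2 fold change was 0.59 ± 0.18 (adjusted p = 0.41). Gpx1 had medians of 79.7 CPM in CON and 114 CPM in SUS libraries (0.43 ± 0.16, adjusted p = 0.715). For RES against CON 0 passed (0% of all genes), with 1 at an unadjusted p under 0.05, Gpx1 (4.11% of all genes), and 0 by DESeq2. For SUS against RES 0 passed (0%), with 1 at an unadjusted p under 0.05, Gsr (2.39% of all genes), and 0 by DESeq2.

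Among the other pathway genes, 0 of 54 passed in T cells in any of the 3 comparisons, with 4 at an unadjusted p under 0.05 for SUS and 6 for RES against CON (4.80% and 4.11% of all genes).

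In B cells, 0 of 9 tested members passed for SUS against CON (0.00568% of all genes), with 0 at an unadjusted p under 0.05 (3.42% of all genes) and 0 by DESeq2, and Nqo1 was not tested. The log2 fold changes of Gpx1, Txn1, Txnrd1, Prdx1 and Prdx5 lay between -0.11 and 0.15. Gsr was low, from 0.412 to 3.32 CPM in CON and from 1.48 to 5.04 CPM in SUS libraries. In the 5 RES libraries it was at 3.64, 3.74, 3.62, 4.26 and 4.73 CPM, above every CON library (0.93 ± 0.44, adjusted p = 1.0), in 1 of 9 members against 0.221% of all genes. For RES against CON 0 passed (0% of all genes), with 1 at an unadjusted p under 0.05 (3.18% of all genes), and for SUS against RES 0 passed (0%), with 0 at an unadjusted p under 0.05. DESeq2 also passed 0 in both. Of the other pathway genes, 0 of 53 passed in B cells in any of the 3 comparisons, with 3 at an unadjusted p under 0.05 for SUS and 1 for RES against CON (3.42% and 3.18% of all genes). Summed red cell markers ran from 1183 to 6946 CPM in CON, 2693 to 11345 CPM in SUS and 3073 to 8669 CPM in RES B cells, and from 929 to 2943, 1667 to 4718 and 1756 to 4802 CPM in T cells. The 4 monocyte markers had RES log2 fold changes from 0.03 to 1.62 in B cells (median 0.68), and 0 passed. Their sum was 462 to 610 CPM in CON and 483 to 612 CPM in RES B cells, and its part in the Gsr values was not tested.

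The cells labelled as B in library 52 had 27.0 CPM of Gsr and 59.4 CPM of Gpx1, and those labelled as T in library 70 had 7.06 CPM of Gsr and 248 CPM of Gpx1. With library 52 kept, the RES log2 fold change of Gsr in B cells was 1.91, and with library 70 kept that of Gpx1 in T cells was 0.68. Neither passed the threshold.

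Set side by side for SUS against CON, the log2 fold change of Gsr was 1.15 ± 0.17 in Ly6C-high and 0.46 ± 0.12 in Ly6C-low monocytes, 0.59 ± 0.18 in T cells and 0.44 ± 0.42 in B cells. That of Prdx5 was 0.89 ± 0.18, 0.59 ± 0.12, 0.23 ± 0.23 and 0.00 ± 0.15, in the same order. The difference between the cell types was not tested, and the choice of members on values of Ly6C-high monocytes favours larger changes there.

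**Figure D5:**
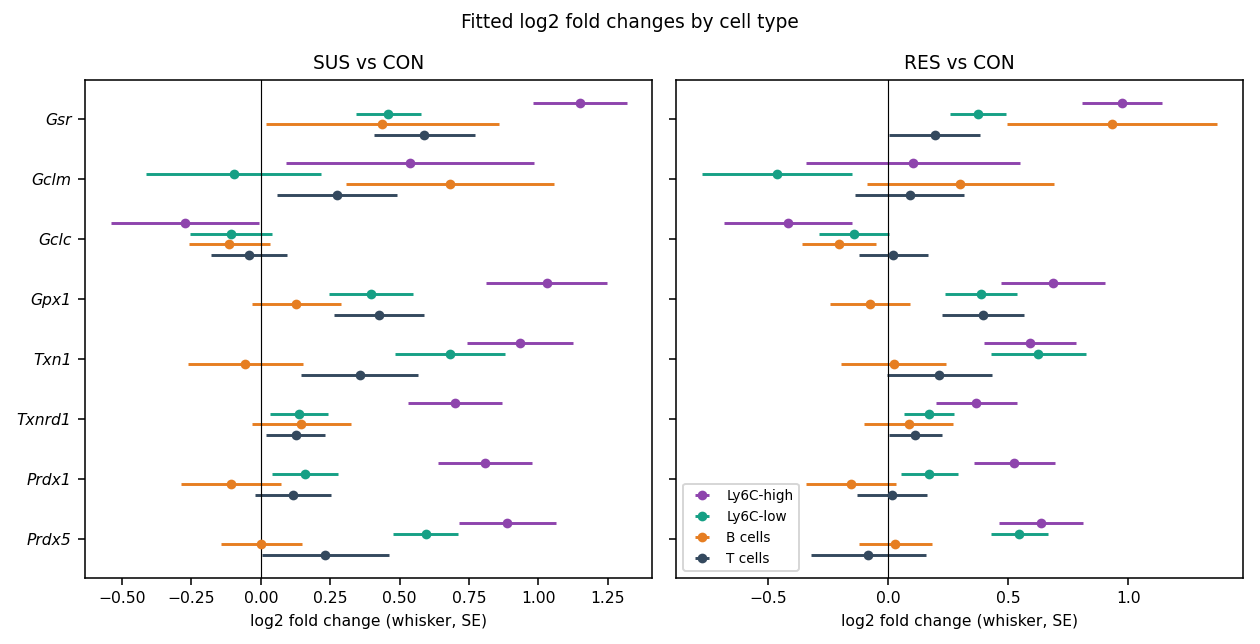
Fitted log2 fold changes (whiskers, SE) of 8 members for SUS against CON and RES against CON in the 4 cell types; Nqo1 and Hmox1 are not drawn. Of these members Gsr had the highest value in Ly6C-high monocytes for SUS (1.15) and for RES (0.98), and Gclc lay between -0.42 and 0.02 in all cell types.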

How the data were processed

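RNA was sequenced from 500 pg per library with a stranded total RNA kit. The authors mapped paired reads to mm10 with HISAT2 and counted them on Ensembl genes with HTSeq, and the deposited values are raw counts per gene, without normalization. Strand setting, duplicates and multiply mapped reads are not given in the sources used here. The members, gene lists and tests were chosen with earlier results of these data known. Of 52636 identifiers, 52489 matched GENCODE M21 (GRCm38), and 0 columns were unmatched. Genes were filtered (filterByExpr), scaled by TMM and fitted with edgeR 4.0.16 (R 4.3.3, quasi-likelihood, robust, all 3 conditions of a cell type, or the 22 CON libraries). P-values were adjusted by Benjamini-Hochberg over all genes tested. Calls between conditions took an adjusted p below 0.05 together with a log2 fold change beyond 1 in either direction, and between cell types at the adjusted p alone. Each SE was obtained from the fold change and the F statistic. Libraries 52 and 70 were left out because their marker genes went against the labels. Alternatives were DESeq2 1.42.0, its size factors, no filter, only the groups compared, removed mitochondrial, hemoglobin and repeat RNA genes, a red cell covariate, and each library left out. Offsets for GC content and transcript length (splines, 5 degrees of freedom) were added after seeing the data. The fit was tested on simulated data. Named were all members, Nfe2l2, Keap1 and Bach1, pathway genes called (otherwise the 3 of largest change with a mean of at least 50 counts), the 5 genes most like Gsr, and markers. The pentose phosphate genes were named after their values were seen. Of the marker list of red cells, Ahsp was not matched. No 2 libraries of a group agreed within sampling noise (lowest chi-square per gene 24.4 over 161 pairs). Counting error does not cover PCR duplication.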

Additional observations from a re-analysis of the deposited data

Results flagged for a closer look

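Dixon's test was applied to each member in each group of 4 to 10 libraries. It found 7 groups of 114 with 1 library apart from the rest, and chance gives about 1 in 20. Gpx1 was at 3176 CPM in Ly6C-high SUS library 14, with the other SUS libraries at 747 to 1622 CPM. The same library was low in Gclc, at 8.06 CPM against 16.3 to 20.5 CPM. Gclc was at 26.3 CPM in Ly6C-low CON library 21 and at 31.1 to 31.7 CPM in the other 3. Prdx1 was at 74.7 CPM in Ly6C-high CON library 16, against 98.3 to 110.5 CPM, and at 36.8 CPM in T cell CON library 65, against 53.2 to 62.7 CPM. Txn1 in B cells was at 6.55 CPM in SUS library 48, against 8.65 to 9.73 CPM, and at 13.9 CPM in RES library 40, against 7.46 to 8.98 CPM.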

How the results depend on the processing

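In Ly6C-high monocytes, 2 members were called for SUS against CON, 7 by the adjusted p alone, 1 with DESeq2, 1 with its size factors, 3 with offsets for GC content and length and 0 with the red cell covariate; leaving out 1 library gave 1 to 3 (1 without SUS library 14 or CON library 16, 3 without SUS library 17 or CON library 1). For RES against CON, 0 were called, 3 by the adjusted p alone (1 with DESeq2 size factors, 5 with only the 2 groups, 0 with the covariate), 1 with the offsets, which were chosen after seeing the data, and 0 to 1 with 1 library left out (1 without RES library 3, 6 or 12 or CON library 4 or 10). In Ly6C-low monocytes, 1 member passed for SUS by the adjusted p alone. With a log2 fold change beyond 1 also required, members called in CON were 1 between the monocyte populations, 4 between Ly6C-high monocytes and T cells, 3 between Ly6C-low monocytes and B cells, and 4 between B and T cells. With only the 2 groups in the fit, 7 were called between Ly6C-low monocytes and T cells. Between B and T cells, 5 were called without the low-count filter and 4 to 7 with 1 library left out (4 or 5 without Ly6C-high library 4, Ly6C-low library 29, B cell library 35, 41, 47 or 50, or T cell library 53, 56, 62 or 65). The causes were not tested. No value of a called member changed sign. Of all genes past the adjusted p in Ly6C-high monocytes, 69.6% were higher in SUS than in CON mice, 59.1% with DESeq2 size factors, 55.6% with DESeq2 and 82.2% with the offsets, and for RES 74.7%, 62.4%, 50.4% and 92.4%. Of genes that also passed the fold threshold, these shares were 66.2%, 54.8%, 47.4% and 79.5% for SUS and 53.3%, 40.1%, 25.3% and 85.4% for RES, so most called genes were lower in SUS mice with DESeq2 and in RES mice with DESeq2 or its size factors. The median log2 fold change of all genes was -0.05 for SUS, -0.16 with DESeq2 and 0.09 with the offsets, against 0.85, 0.76 and 0.79 for the members, and for RES -0.03, -0.14 and 0.17, against 0.59, 0.49 and 0.70. Nothing is read from the gap to the members, which were chosen on values of these cells. No paired analysis was possible because the groups share no replicate numbers. Low counts limit Nqo1 in all cell types and Hmox1 in B and T cells.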
